A study of Mus musculus with 2 samples.

Results

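The transcription factors that set the myeloid lineages were followed in RNA-seq of MDSCs (myeloid-derived suppressor cells) grown from wild-type mouse bone marrow, a mixed population of immature myeloid cells that can restrain T cells. Of the 54751 gene rows in the deposited count table, 9 carried the name of a chosen factor and were taken as members: Cebpa, Cebpb, Cebpd, Cebpe, Spi1, Klf4, Gfi1, Maf and Pou2f2. The set holds 1 library of cells given mrWNT2, a preparation of the secreted WNT ligand WNT2, and 1 library of cells given vehicle, called control. Both cultures were dosed on day 0 and day 3 and collected on day 6, and the labels link the work to colorectal cancer; the sources used here give neither the dose nor the number of animals behind each culture. With 1 library per group there was no replicate and no test, so every interval is a 95% binomial (Clopper-Pearson) interval of counting error between these libraries, not between the conditions.

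Commitment to the myeloid lineages depends on a small set of DNA-binding proteins. PU.1, the ETS factor encoded by Spi1, and C/EBPα, encoded by Cebpa, act early, PU.1 in granulocytes and macrophages alike and C/EBPα above all in granulocytes. GFI1, a zinc finger repressor, and C/EBPε carry granulocytes through later maturation, whereas KLF4 and c-MAF, the product of Maf, are linked to monocytes and macrophages. C/EBPβ and C/EBPδ take part in emergency granulopoiesis and in inflammatory gene expression. The POU-domain factor OCT2, the product of Pou2f2, binds the octamer element and is best known from B cells.

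The mrWNT2 library held 12621110 counts and the control library 13474453. Levels are given as CPM (the count relative to the library's TMM-scaled size, which compares 1 gene between libraries) or as FPKM deposited by the authors (a level per gene length, which also allows genes to be compared within a library). The 9 MDSC markers followed summed to 38615 CPM in mrWNT2 and 45832 CPM in control, but their levels differed widely. Itgam, which encodes CD11b, stood at 477 CPM in mrWNT2 and 495 CPM in control, and S100a9 at 22000 and 25349 CPM in the same order. Ly6g stood at 86.3 CPM in mrWNT2 and 173 CPM in control, and Ly6c1 had only 18 counts in each library. For 7 of the 9 the whole interval of the ratio was below 1, and for 0 it was above. None of 9 T cell markers reached a mean of 1 CPM. Other myeloid lineages were present: markers of eosinophils, which also use C/EBPε, summed to 1457 CPM in mrWNT2 and 1405 in control, and those of basophils and mast cells to 243 and 276 CPM in the same order. In such bulk RNA, fewer cells of a type and less RNA per cell cannot be told apart.

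All 9 factors were expressed, and 7 of them lay within 1.5-fold of their control level, as most measured genes did. Of the 9, Pou2f2 differed most, at 38.5 CPM in mrWNT2 and 1.57 CPM in control, a 24.5-fold higher level (interval 15.9 to 40.0). Maf was 1.73-fold lower (1.495 to 1.995), Cebpe 1.35-fold lower (1.26 to 1.44), Cebpa 1.22-fold lower (1.11 to 1.34) and Cebpd 1.19-fold lower (1.06 to 1.33). Cebpb was 1.08-fold higher (1.01 to 1.16). The intervals of Spi1, Klf4 and Gfi1 included a ratio of 1.

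Each of the 9 members reached a mean of 1 CPM over both libraries, the minimum for calling a gene measured throughout. Of them, 1 was at least 2-fold higher in mrWNT2, where 3.38% of the 12856 measured genes were, and 0 were at least 2-fold lower, against a background of 2.49%. At a threshold of 1.5-fold the higher member was again Pou2f2 (background 7.62%) and the lower one was Maf (background 7.02%). The other 7 members lay between, as did 10974 of the 12856 measured genes, so their number does not set the members apart. For 4 members the whole interval was below a ratio of 1, as for 18.8% of measured genes, and for 2 members it was above 1, as for 21% of measured genes. Intervals narrow as counts rise, so these shares also depend on the level of the genes. Of 66 measured relatives and partners listed beside the members, 24 had the interval below 1 and 13 above. The members' median log2 ratio was -0.11, and -0.18 without Pou2f2, beside 0.02 over all measured genes.

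**Figure D1:**
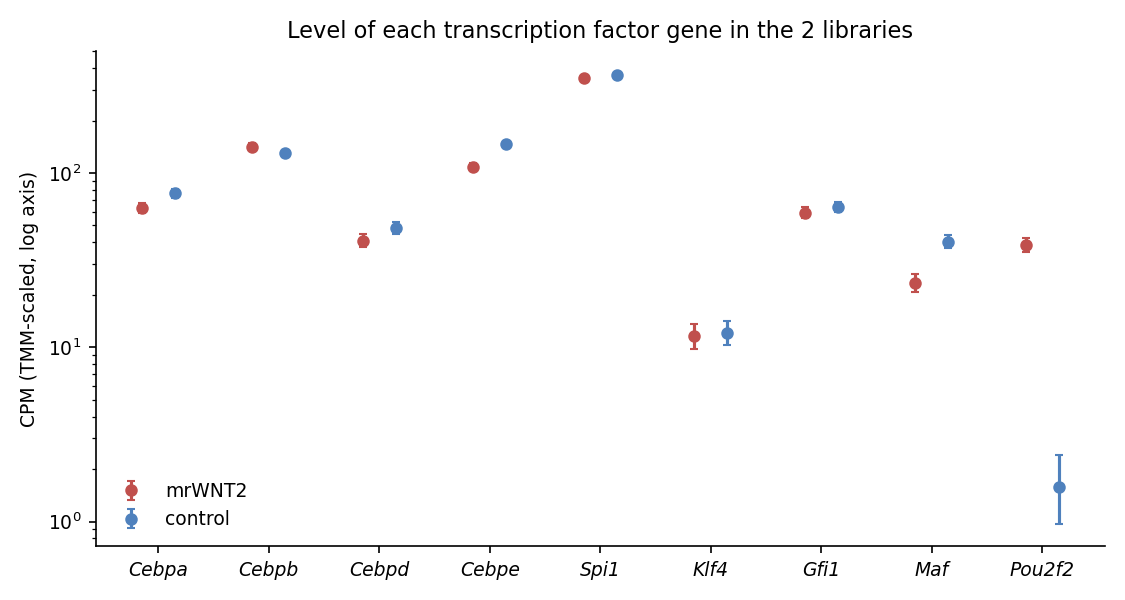
Level of each factor's gene in the mrWNT2 library (left point of each pair) and the control library (right point), in TMM-scaled CPM on a log axis; bars are exact 95% Poisson intervals of counting error. Pou2f2 stands at 38.5 CPM in mrWNT2 and 1.57 CPM in control, and of the other 8 genes Maf has the widest gap, at 23.4 and 40.3 CPM in the same order.

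Per unit of gene length, Spi1 was the most abundant member in both libraries, at 128 FPKM in mrWNT2 and 136 FPKM in control, and ranked 295th and 273rd among measured genes in those libraries. Cebpb followed in mrWNT2 (92.8 FPKM) and Cebpe came after it (86.3 FPKM), whereas in control Cebpe (119 FPKM) stood above Cebpb (87.6 FPKM). Cebpb and Cebpe thus changed places, although the step between Cebpb and Cebpe in mrWNT2 was small, a per-length ratio of 1.07 with an interval of 1.001 to 1.15. Cebpa (23.6 and 29.4 FPKM in mrWNT2 and control), Gfi1 (18.3 and 20.2) and Cebpd (10.8 and 13.1) kept the fourth to the sixth place in both. At the low end, mrWNT2 had Pou2f2 (4.62 FPKM), Klf4 (3.75) and Maf (2.80) in that order, and control had Maf (4.95), Klf4 (4.02) and Pou2f2 (0.193). Counting intervals excluded equality at each of the 8 steps in either order, most narrowly between Pou2f2 and Klf4 in mrWNT2 (1.23, 1.02 to 1.49) and between Maf and Klf4 in control (1.23, 1.03 to 1.48), besides the step already named.

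Spi1 (ENSMUSG00000002111, chromosome 2, 91082390 to 91115756, plus strand, GRCm38) had 4443 counts in mrWNT2 and 4859 in control. On the CPM scale that is 349 in mrWNT2 and 363 in control, a ratio of 0.962 (0.923 to 1.002). Of 10 ETS genes listed, Spi1 included, 9 were measured, and not all stayed so close. Spic, which encodes a PU.1 relative known for its role in red pulp macrophages, was 2.65-fold higher (2.22 to 3.16), with 453 counts in mrWNT2 and 180 in control. Ets2 was 2.24-fold higher (2.04 to 2.46), and the other 7 listed and measured, among them Fli1 (ratio 0.890) and Ets1 (0.814), lay within 1.5-fold. Etv4, an ETS gene outside the list and named after its values were seen, was 3.68-fold higher (1.44 to 11.1) on 21 counts in mrWNT2 and 6 in control.

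Genes that PU.1 is known to activate were spread on both sides. Among the 15 listed, all measured, 12 lay within 1.5-fold, 2 were higher than that and 1 was lower, and their median log2 ratio was -0.05. The higher genes were Csf1r, the receptor for macrophage colony-stimulating factor (346 CPM in mrWNT2 and 146 in control, 2.37-fold), and Adgre1, which encodes F4/80 (1.8-fold). The lower gene was Fcgr1, which encodes a high-affinity receptor for IgG (1.72-fold). The NADPH oxidase genes Cybb, Ncf1 and Ncf4 had ratios of 1.21, 0.953 and 1.07.

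Cebpa (ENSMUSG00000034957, chromosome 7, 35119293 to 35121928, plus strand) had 800 counts in mrWNT2 and 1025 in control, or 62.9 and 76.6 CPM in the same order. Cebpg, a C/EBP without an activation domain that lies 62720 bases from Cebpa on the same chromosome, was 1.21-fold lower, close to the 1.22-fold of Cebpa. The ratio of Spi1 to Cebpa counts, which needs no library scaling, was 5.55 in mrWNT2 and 4.74 in control, 1.17-fold higher (1.06 to 1.30). Primary granule and early granulocyte genes that need C/EBPα stayed near their control level. All 6 lay within 1.5-fold, with a median log2 ratio of 0.04: the myeloperoxidase gene Mpo had a ratio of 0.841, the elastase gene Elane 0.916, the cathepsin G gene Ctsg 1.17 and the G-CSF receptor gene Csf3r 0.993.

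Cebpe (ENSMUSG00000052435, chromosome 14, 54710360 to 54712174, minus strand) had 1378 counts in mrWNT2 and 1950 in control, or 108 and 146 CPM in the same order. It was the lowest by ratio of the 6 listed C/EBP genes. Later granule and neutrophil genes linked to C/EBPε lay lower too: 5 of the 12, all measured, were at least 1.5-fold lower, 6 lay between and 1 was higher by that margin, with a median log2 ratio of -0.38. Ly6g, the granulocyte surface antigen gene, was 2.0-fold lower, the gelatinase gene Mmp9 1.98-fold lower and the lactoferrin gene Ltf 1.55-fold lower (7398 CPM in mrWNT2 and 11488 in control). The secretory genes Hp (1.70-fold), Lcn2 (1.22-fold) and Lyz2 (1.21-fold) were higher. Neutrophil markers, some of which are also in this list, were all measured. Of the 10, 3 were at least 1.5-fold lower, as were 7.02% of all measured genes, and 7 lay between. They ran from Retnlg at 3.06-fold lower to Csf3r at a ratio of 0.993. Their summed level was 67337 CPM in mrWNT2 and 83316 CPM in control, with no marker at 0. Their part in the lower Cebpe level was not tested.

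Gfi1 (ENSMUSG00000029275, chromosome 5, 107716657 to 107726036, minus strand) had 752 counts in mrWNT2 and 851 in control, a ratio of 0.929 (0.841 to 1.03). Its partners in repression were equally near 1: the demethylase gene Kdm1a had a ratio of 1.10, the corepressor gene Rcor1 0.993 and the deacetylase genes Hdac1, Hdac2 and Hdac3 between 0.927 and 1.13. Genes that GFI1 is known to hold down, mostly genes of monocyte or progenitor identity, went both ways. Among 11 measured genes, those at least 1.5-fold higher were 2, Csf1r (2.37-fold) and Egr1 (1.52-fold), and 3 lower, Irf8 (1.60-fold), Egr2 (1.58-fold) and Csf1 (1.55-fold), with a median log2 ratio of -0.23. Irf8, which encodes a factor that drives monocytes at the expense of granulocytes, had 103 counts in mrWNT2 and 173 in control. Because Cebpe was lower as well, the ratio of Irf8 to Cebpe counts was 0.0747 in mrWNT2 and 0.0887 in control, and the interval of its change, 0.647 to 1.09, included 1.

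Gfi1 was the only member for which any of the 4 short motifs searched was found in its RefSeq promoter windows. Such windows (GRCm38.p6, 250 bases before to 50 after a start site) were available for 5 of the 9 members, 6 windows in all. They were searched on both strands for TTGCNNAA (C/EBP), AGGAAG (PU.1 and other ETS factors), ATGCAAAT (octamer) and CTTTGAA (TCF/LEF). Over all 32851 windows of that length these letters occurred in 10.8%, 35.4%, 1.74% and 5.14% of windows, in that order. The window of the outer Gfi1 start (chr5:107725756-107726055, minus strand) is shown because it holds the letters of the C/EBP motif, in capitals, beginning 143 bases before the start site:
Gfi1 outer start: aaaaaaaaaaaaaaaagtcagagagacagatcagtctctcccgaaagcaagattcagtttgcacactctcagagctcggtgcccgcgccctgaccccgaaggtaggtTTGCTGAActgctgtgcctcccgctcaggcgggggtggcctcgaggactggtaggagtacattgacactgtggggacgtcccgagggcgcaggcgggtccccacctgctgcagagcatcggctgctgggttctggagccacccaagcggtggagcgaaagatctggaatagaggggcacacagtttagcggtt
The window of the inner Gfi1 start held the ETS letters, 108 bases before the start on the opposite strand. The windows of Cebpa, Cebpb, Klf4 and Pou2f2 held none of the 4 motifs. A match is a description of the letters and not a binding site, and other forms of these motifs were not searched.

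Cebpb (ENSMUSG00000056501, chromosome 2, 167688915 to 167690418, plus strand) had 1795 counts in mrWNT2 and 1741 in control, or 141 and 130 CPM in the same order. Its 1.08-fold higher level rests on the scaling: with DESeq2 size factors the ratio was 1.06 and its interval, 0.991 to 1.13, included 1. Cebpd (ENSMUSG00000071637, chromosome 16, 15887286 to 15891031, plus strand) had 520 counts in mrWNT2 and 649 in control, or 40.9 and 48.5 CPM in the same order. Within a library neither statement needs scaling: the Cebpb to Cebpa count ratio was 2.24 in mrWNT2 and 1.70 in control, 1.32-fold higher (1.18 to 1.48), and the Cebpd to Cebpb count ratio was 0.290 in mrWNT2 and 0.373 in control, 1.29-fold lower (1.12 to 1.47). The Cebpe to Cebpa count ratio changed less, 1.72 in mrWNT2 and 1.90 in control, with an interval for its fold of 0.805 to 1.02.

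C/EBP proteins bind DNA as dimers with one another, so the family was also described as a mixture. Over Cebpa, Cebpb, Cebpd, Cebpe, Cebpg and Ddit3 (which encodes CHOP, a C/EBP relative that blocks DNA binding of its partners), the summed level was 231 FPKM in mrWNT2 and 270.5 FPKM in control. Cebpb made up 40.1% of it in mrWNT2 and 32.4% in control, and Cebpe 37.3% in mrWNT2 and 44.0% in control. The shares of Cebpa (10.2% and 10.9%), Cebpd (4.67% and 4.85%), Cebpg (4.37% and 4.61%) and Ddit3 (3.28% and 3.33%), each given for mrWNT2 and then control, moved by less than 1 percentage point. Trib1, whose product promotes the breakdown of C/EBPα protein, was 1.46-fold lower (36.9 CPM in mrWNT2 and 53.7 in control).

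**Figure D2:**
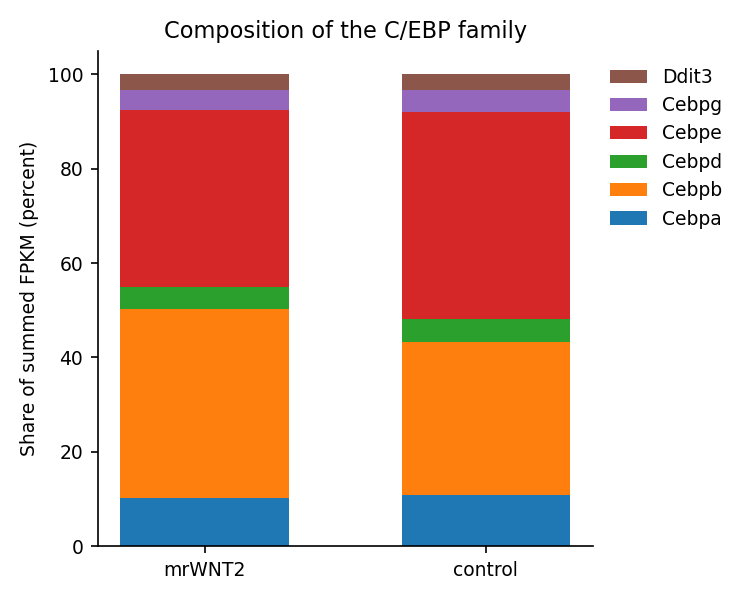
Share of each C/EBP family gene in the family's summed FPKM, for the mrWNT2 library (left bar) and the control library (right bar). Cebpb takes 40.1% in mrWNT2 and 32.4% in control, and Cebpe 37.3% in mrWNT2 and 44.0% in control.

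Inflammatory genes linked to C/EBPβ and C/EBPδ were mostly higher, while both factors' own transcripts lay within 1.2-fold of control. Counts sufficed for 13 of the 14 listed genes; 11 were higher by 1.5-fold or more, 1 was lower by that much and 1 lay between, with a median log2 ratio of 1.02. Ptges, a prostaglandin E synthase gene, was 9.12-fold higher (131 CPM in mrWNT2 and 14.4 in control), Nos2 6.47-fold and the acute-phase gene Saa3 5.82-fold (2164 CPM in mrWNT2 and 372 in control). Csf3, which encodes G-CSF, had 144 counts in mrWNT2 and 5 in control (30.3-fold, 12.7 to 94.7). The lower gene was Arg1, which encodes arginase 1 (2.70-fold). Many of these genes also answer to NF-kB, and the list was drawn up with results of these libraries known.

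Klf4 (ENSMUSG00000003032, chromosome 4, 55527143 to 55532466, minus strand) was among the weakest members, with 147 counts in mrWNT2 and 162 in control, and its ratio of 0.954 had an interval of 0.758 to 1.2. The counts thus leave room for a level up to 1.32-fold lower or 1.2-fold higher in mrWNT2. The Klf4 to Gfi1 count ratio, a balance of a monocyte against a granulocyte factor, was 0.195 in mrWNT2 and 0.190 in control, with an interval for its fold of 0.798 to 1.32. Of the 8 KLF genes listed, Klf4 included, Klf6 and Klf13 had the highest levels in CPM, at 338 and 400 CPM in mrWNT2 and 395 and 446 CPM in control. All 8 of these were measured and lay within 1.5-fold, with a median log2 ratio of -0.14. Monocyte genes tied to KLF4 gave 3 of 9 at least 1.5-fold higher, none lower by that margin and 6 between. The higher ones were Csf1r, the endotoxin co-receptor gene Cd14 (2.03-fold) and the fibronectin gene Fn1 (1.71-fold). Treml4 fell just short of the margin on the other side, at 1.499-fold lower (1.13 to 1.99). The whole interval was above 1 for 4 of the 9 and below 1 for 3. Ly6c2, the inflammatory monocyte antigen gene, had a ratio of 0.947.

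Maf (ENSMUSG00000055435, chromosome 8, 115682942 to 115707794, minus strand) had 297 counts in mrWNT2 and 539 in control, or 23.4 and 40.3 CPM in the same order. It had the lowest ratio of the 9 members. Among the small MAF genes, which lack an activation domain, Mafg was 1.22-fold lower and Maff 1.51-fold higher. Genes linked to c-MAF in macrophages were lower as well: 8 of the 10 measured were at least 1.5-fold lower, 1 lay between and 1 was higher by that margin, with a median log2 ratio of -1.28. The mannose receptor gene Mrc1 was 3.07-fold lower, the haemoglobin scavenger receptor gene Cd163 2.61-fold, the complement gene C1qb 2.50-fold and Gas6, which encodes a bridging ligand for engulfment, 4.03-fold. Il10, a known direct target of c-MAF, was 2.80-fold higher on 40 counts in mrWNT2 and 15 in control.

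Of the 12 genes listed for c-MAF, 7 are also among the 12 macrophage markers followed, 5 of them measured. With 10 of the 12 markers measured, 7 were lower by 1.5-fold or more, 2 higher and 1 between. Their summed level was 1556 CPM in mrWNT2 and 1960 CPM in control, and Timd4 was at 0 in both. The 2 higher markers were Marco (8.67-fold) and Adgre1 (1.8-fold), and Mertk had a ratio of 1.08. Most of the measured markers, but not these 3, were lower like Maf, and a lower Maf level and fewer macrophages cannot be told apart. By ratio, the nearest protein-coding genes above a mean level of 10 CPM were Fam129a and Slc2a3, just above Maf, and Slc40a1, the iron exporter gene, and Ctse just below, all between 1.72-fold and 1.73-fold lower; with 2 libraries such likeness is 1 number per gene.

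**Figure D3:**
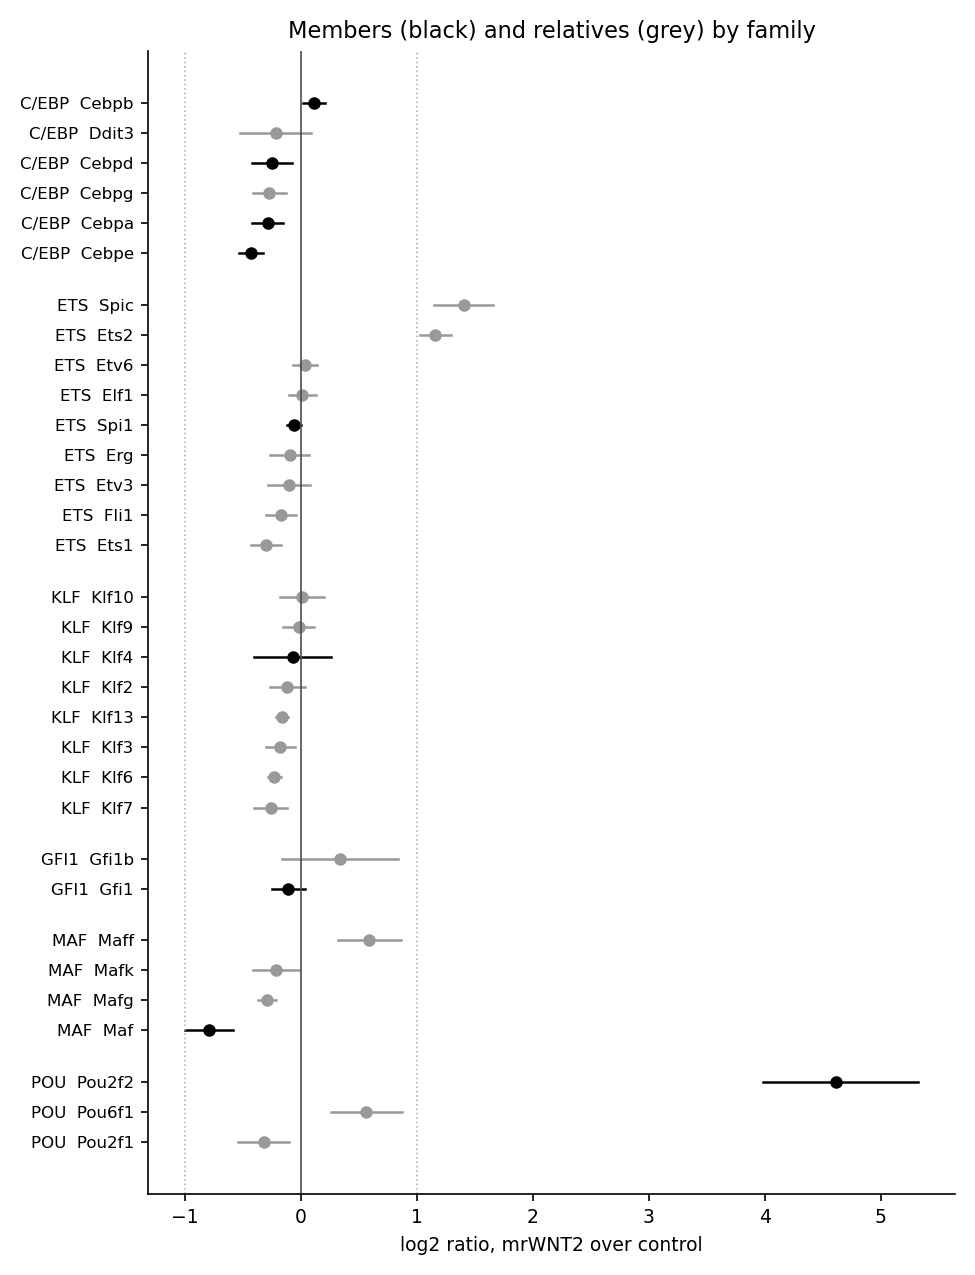
Log2 ratio of mrWNT2 over control for the measured members (black) and measured relatives (grey), by family, with 95% binomial intervals of counting error; dotted lines mark 2-fold. Pou2f2 lies at 4.62 and Maf at -0.79, and Spic and Ets2 are the other genes shown beyond 2-fold.

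Pou2f2 (ENSMUSG00000008496, chromosome 7, 25087344 to 25179726, minus strand) had 490 counts in mrWNT2 and 21 in control. Per length it stood at 4.62 FPKM in mrWNT2, between Cebpd and Klf4, and at 0.193 FPKM in control. It had the highest ratio of the 772 measured genes that the deposited tables assign to a transcription factor family, of which 2.46% were at least 2-fold higher. The next was Bhlhe41, a basic helix-loop-helix gene, at 5.63-fold (3.33 to 10.1) on 91 counts in mrWNT2 and 17 in control. Among all 12856 measured genes it ranked 13th by ratio. Of the 8150 protein-coding genes whose mean level reached 10 CPM, a minimum that Pou2f2 passed only through its level in mrWNT2, its neighbours by ratio were Ly6i (47.5-fold) and the gelatinase gene Mmp2 (30.3-fold) above it and the metalloreductase gene Steap4 (23.7-fold) and Il1a (19.9-fold) below it.

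The other listed POU genes that were measured, and the neighbours of Pou2f2 on the chromosome, had ratios much closer to 1. Pou2f1, which encodes the widely expressed octamer factor OCT1, was 1.25-fold lower (308 counts in mrWNT2 and 404 in control). The Pou2f2 to Pou2f1 count ratio was 1.59 in mrWNT2 and 0.0520 in control, 30.6-fold higher (19.2 to 51.0), so that per count the balance of the octamer factors was on opposite sides of 1. Pou6f1 was 1.48-fold higher. The flanking genes had ratios of 0.922 (Zfp574) and 0.70 (Dedd2), and D930028M14Rik, a long non-coding RNA gene that overlaps Pou2f2 on the other strand, had 12 counts in mrWNT2 and 24 in control. The Pou2f2 model has 9 coding transcripts of 5 to 15 exons in the reference annotation, and gene counts do not show which of them was made.

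The promoter window of Pou2f2 is shown because this gene carries the largest difference among the members. Its RefSeq start lies within the deposited gene span rather than at its outer end (chr7:25132411-25132710, minus strand), and the 50 bases after the start are in capitals:
Pou2f2: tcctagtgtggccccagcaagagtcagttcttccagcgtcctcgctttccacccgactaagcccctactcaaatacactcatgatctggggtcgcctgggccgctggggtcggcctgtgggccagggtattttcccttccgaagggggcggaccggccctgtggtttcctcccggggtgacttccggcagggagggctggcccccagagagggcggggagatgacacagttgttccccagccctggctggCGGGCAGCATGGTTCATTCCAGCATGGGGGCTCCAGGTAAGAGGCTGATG
This window is 64% G and C, beside a median of 52.7% over all windows. None of the 4 strings searched (TTGCNNAA, AGGAAG, ATGCAAAT and CTTTGAA) occurred in it on either strand. Other forms of the C/EBP, ETS, octamer and TCF/LEF motifs were not searched, in this window or elsewhere in the gene. The result therefore does not show that the window lacks sites for these factors.

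Most B cell markers were too scarce to be compared beside Pou2f2. Of 17 B and plasma cell markers 5 had a mean of at least 1 CPM, and the 17 summed to 50.6 CPM in mrWNT2 and 55.1 CPM in control. These sums hide opposite differences in 2 genes, Ighm (27.5 CPM in mrWNT2 and 45.3 in control) and Sdc1 (15.6 CPM in mrWNT2 and 1.27 in control). Pax5, the B cell identity factor gene, was at 0 counts in both libraries, as were Vpreb3, Blk and Mzb1; Ms4a1 had 1 count in mrWNT2 and 0 in control. Pou2af1, the gene of the B cell coactivator that binds octamer factors, had 0 counts in mrWNT2, which allows up to 0.236 CPM, and 1 in control. Ighm was 1.65-fold lower (350 counts in mrWNT2 and 606 in control), and Cd79a, Cd79b and Cd22 had 22 to 40 counts per library with intervals that included 1. The marker that was higher was Sdc1, which encodes syndecan-1 and is not restricted to plasma cells, at 12.2-fold (198 counts in mrWNT2 and 17 in control). Of 5 genes linked to OCT2, mostly from work on B cells, 3 were measured. All 3 were at least 1.5-fold higher, as were 7.62% of all measured genes: Prdm1 at 2.18-fold, Cd36 at 1.69-fold and Ell2 at 1.68-fold. This short list was drawn up with results of these libraries known, so it is no test of OCT2 activity.

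**Figure D4:**
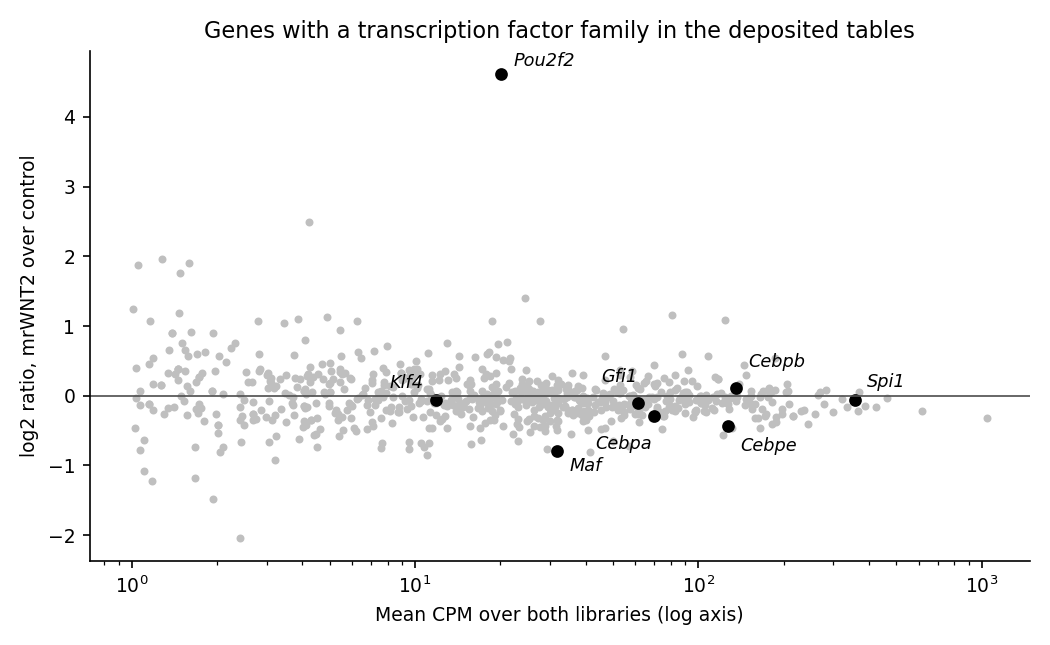
Log2 ratio of mrWNT2 over control against mean CPM for the 772 measured genes with a transcription factor family in the deposited tables (grey), with members in black; Cebpd has no family there and is not drawn. Pou2f2, at 4.62, lies above all others, and the other members lie between -0.79 and 0.12.

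Among 74 listed relatives and partners that are not members, 66 were measured and 58 of them lay within 1.5-fold. The 7 that were at least 1.5-fold higher were Bhlhe41, Spic, Ets2, Batf3 (2.28-fold, from 26 counts in mrWNT2 and 12 in control), Nr1h3, the gene of the liver X receptor LXRα (1.69-fold), Irf4 (1.68-fold) and Maff. The single gene lower by that margin was Irf8. Their median log2 ratio was -0.06. Factors of stem and progenitor cells were close to control, with ratios of 0.907 for Myb, 1.07 for Gata2 and 1.16 for Runx1, and Zeb2, a repressor needed in monocytes and dendritic cells, was 1.48-fold higher. Rara, a retinoic acid receptor gene with a known role in granulocyte maturation, was 1.38-fold lower and the heme-sensing repressor gene Bach1 1.37-fold lower.

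Markers of other cell types that the cultures could hold were read beside the members. Of 8 monocyte markers 6 were measured, 2 of them higher by 1.5-fold or more (Csf1r and Fn1) and 1 lower (Ly86, 1.81-fold), and the 8 summed to 3220 CPM in mrWNT2 and 2740 CPM in control. Of 9 progenitor markers 8 were measured, and the 9 summed to 135 CPM in mrWNT2 and 144 CPM in control. The stem cell factor receptor gene Kit, also a mast cell marker, was 2.15-fold lower (213 counts in mrWNT2 and 481 in control), and Procr, the endothelial protein C receptor gene, 6.31-fold higher (156 counts in mrWNT2 and 26 in control). Dendritic cell markers summed to 37.6 CPM in mrWNT2 and 41.2 CPM in control, and all 4 of the 9 that were measured lay within 1.5-fold. Erythroid markers summed to 10.1 CPM in mrWNT2 and 9.20 CPM in control, with 2 of 9 measured, both within 1.5-fold. Of 11 stromal and endothelial markers 7 were measured. The 11 summed to 81.4 CPM in mrWNT2 and 70.6 CPM in control, of which Pecam1 gave 47.9 and 41.6 CPM in the same order. Among them the collagen genes Col1a1 (2.61-fold) and Col1a2 (4.18-fold) and the matrix gene Sparc (3.07-fold) were lower, whereas Lepr, which encodes the leptin receptor, stood 7.94-fold higher (287 counts in mrWNT2 and 38 in control). The part of these cell types in the members' ratios was not tested.

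**Figure D5:**
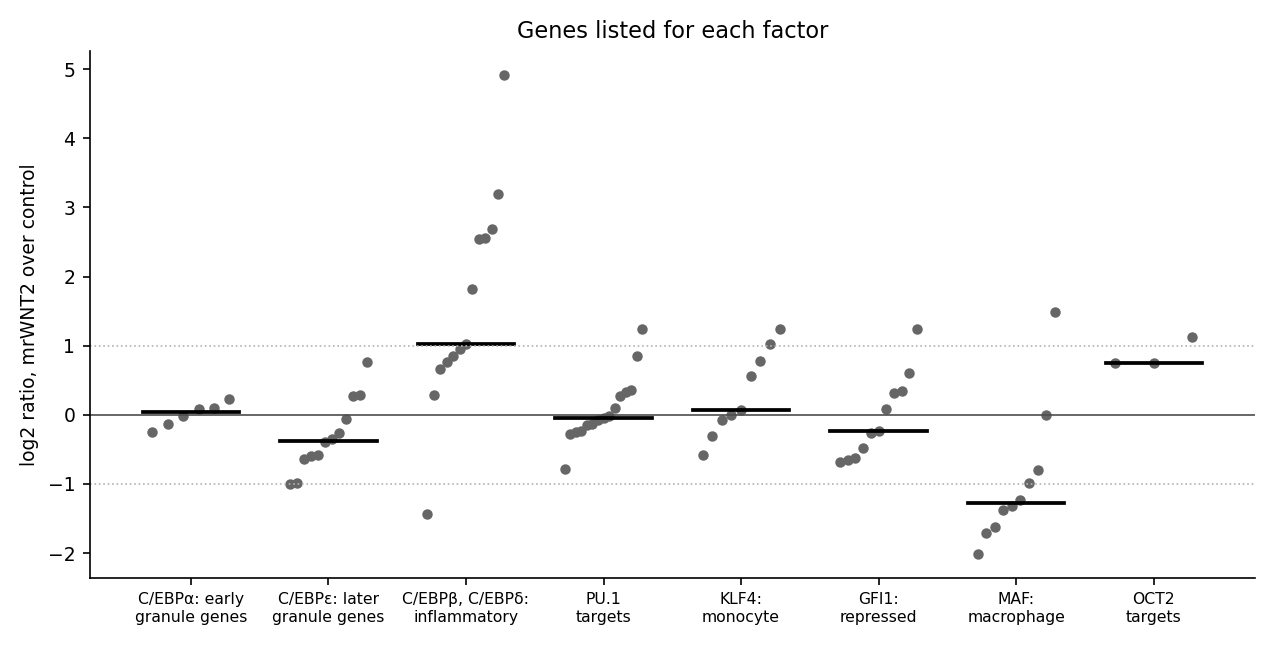
Log2 ratio of mrWNT2 over control for the measured genes listed for each factor (points, in rising order within a list) with the list's median (bar); dotted lines mark 2-fold. The medians run from -1.28 for the c-MAF list and -0.38 for the C/EBPε list to 1.02 for the list of C/EBPβ and C/EBPδ; some genes stand in more than 1 list.

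Other members also overlap genes on the opposite strand. Cebpb lies inside the span of Tmem189 and Cebpd overlaps Spidr, and the sources used here do not say whether counting used the strand. Tmem189 had a ratio of 1.02 (0.936 to 1.10), beside 1.08 (1.01 to 1.16) for Cebpb, and Spidr a ratio of 1.11 (0.971 to 1.27), beside 0.843 (0.749 to 0.947) for Cebpd. The part of overlapping reads in either member's ratio was not tested. A430072P03Rik, which overlaps Gfi1, had 26 counts in mrWNT2 and 30 in control, and the antisense genes over Cebpa and Maf had at most 2 counts per library.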

How the data were processed

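TRIzol was used for RNA extraction and a NEBNext Ultra kit for library preparation, per the labels' protocols. HISAT2 2.0.5, featureCounts 1.5.0-p3, fastp, CASAVA 1.8 and DESeq2 1.20.0, with the build GRCm38 (mm10), are listed in the submitters' processing notes. The authors deposited raw counts per gene and FPKM, each with 1 column per library. Over 10078 genes with more than 50 counts in each library, the log2 ratio from the deposited FPKM and that from counts scaled with DESeq2 size factors differed by at most 1.2e-08. All 9 members matched the reference annotation (GENCODE vM21) in identifier and coordinates.

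Counts were scaled with TMM factors (1.01 for mrWNT2 and 0.992 for control) in edgeR 4.0.16 under R 4.3.3. Ratios carry no pseudocount and have exact 95% intervals from both counts (scipy 1.17.1). Ratios of 2 genes within a library have exact conditional intervals of the odds ratio. A count of 0 was read against a floor of 3 counts. Intervals and floors cover counting error only, since reads carry no molecular identifiers. A gene was called measured from a mean level of 1 CPM, and its ratio was set against thresholds of 2-fold and 1.5-fold. The calculations were checked on simulated counts.

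The members and the 29 gene lists were chosen with earlier results of these data known. Genes named were the members, the members of fixed pairs, overlapping and flanking genes, and, of each list, mainly those with the largest ratios or highest levels; others are examples chosen after their values were seen. Alternatives were DESeq2 1.42.0 size factors, total counts, a pseudocount of 1 CPM, the deposited FPKM and other minimum levels. Lists are given by counts and sums, and the values of some listed genes are not reported here.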

Additional observations from a re-analysis of the deposited data

How the results depend on the processing

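Across 25 results and 100 alternative values, 0 changed sign where the counting interval excluded no difference, and 87 stayed within the counting interval or within 1.5 times the count. Not all of these values could differ. For single members the deposited FPKM repeated the result with DESeq2 size factors. In the count ratios of 2 genes library scaling and gene length cancel, so the FPKM returned the main value. With a pseudocount of 1 CPM, the log2 ratio of Pou2f2 was 3.94 in place of 4.62 and that of the Pou2f2 to Pou2f1 count ratio 4.25 in place of 4.94; a pseudocount shrinks the ratio of a gene with 21 counts by construction. The background counts moved with the genes tested. At 2-fold, 435 genes were higher and 320 lower, against 288 and 126 with the pseudocount, 154 and 61 at a mean of at least 10 CPM, and 1543 and 1270 with no minimum. At 1.5-fold, 980 were higher and 902 lower, against 352 and 252 at a mean of at least 10 CPM and 2532 and 2675 with no minimum, and 591 lower with the pseudocount. The members past 2-fold and 1.5-fold numbered the same under every alternative run. Other minimum levels could not change these numbers, since every member had a mean above 10 CPM. DESeq2 size factors lowered all log2 ratios by 0.03; besides Cebpb, this moved the interval of Spi1 (0.902 to 0.979) below 1. No paired analysis was possible because each group had 1 library, and for the same reason no replicate could be left out. At this depth Klf4 and the control level of Pou2f2 carried the widest intervals among the members.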
